A study of Mus musculus with 5 samples.

Results

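The cytochromes P450 of families 1 to 4 are heme enzymes of the endoplasmic reticulum that oxidize drugs, toxicants, steroids and fatty acids. A gene was counted as a member when its name on the array was Cyp followed by a family number from 1 to 4, a subfamily letter and a gene number. This gave 82 members of 37074 genes with a name. Of these, 45 stood on a list of P450s that hepatocytes are known to express (hepatocyte-type), and the other 37 did not. The members included 5 pseudogenes or antisense genes (Cyp2c53-ps, Cyp2d37-ps, Cyp4b1-ps2, Cyp4f41-ps and Cyp4x1os).

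Microsomal P450s take electrons from NADPH through P450 reductase (Por). In the liver the hepatocyte holds most of the P450, and the hepatocytes around the central vein hold more than those around the portal tract. Their transcription is known to follow nuclear receptors: Nr1i3 (CAR) and Nr1i2 (PXR) for the CYP2B, CYP2C and CYP3A subfamilies, Ppara for CYP4A, and the aryl hydrocarbon receptor (Ahr) for CYP1. Several CYP2C and CYP2J enzymes convert arachidonic acid to epoxides that act on vessels, and CYP4F enzymes hydroxylate leukotrienes and other fatty acids. Endothelial cells and leukocytes are known to carry some P450s of their own.

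Expression was measured on 5 Agilent 1-colour arrays of 60-base probes, 1 array for each condition. The conditions were liver sinusoidal endothelial cells (LSECs) from mouse liver, CD31-positive tumor endothelial cells (TECs) from orthotopic tumors of the lines HAK-1B, Hepa1-6 and KYN-2, together with Hepa1-6 cells in culture (the cultured cells). Hepa1-6 is a hepatoma line of the mouse, whereas the HAK-1B and KYN-2 lines come from human hepatomas, so that each tumor model stands for 1 line. The labels give the strain C57BL/6 for LSEC and all 3 TECs and C57L for the cultured cells, and name no treatment. The methods describe female mice aged 6 weeks, either C57BL/6 or BALB/c nu/nu, which lack T cells, and do not say which host gave which array. They also name Huh-7 in the place of HAK-1B in the paragraph on the arrays, whereas the label reads HAK1B. CD31 beads were used to select the TECs from collagenase digests, and how many animals were pooled for an array was not stated.

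Probes well above background made up between 44.6% (Hepa1-6 cells) and 78.1% (Hepa1-6 TEC) of the 56605 probes, and none was saturated. The median coefficient of variation of repeated spots lay between 2.62% and 3.08%, which covers the reading of 1 array but not how animals vary. The TECs shared a slide, whereas LSEC and the cultured cells were each on another, so that slide and group cannot be told apart in any comparison with LSEC. The labelled cell types were checked on marker lists. All 8 LSEC markers and all 8 pan-endothelial markers were well above background on the LSEC and TEC arrays. On the array of cultured cells 1 of 8 in each list was. The flag does not mean equal levels. The LSEC markers had a median signal of 16.26 in LSEC and between 13.27 and 13.67 in the TECs. That of the pan-endothelial markers was 13.28 in LSEC and between 11.01 and 12.23 in the TECs. All 20 hepatocyte markers were also well above background on the LSEC array. So were all 6 macrophage markers, with a median signal of 15.85 in LSEC, where that of the LSEC markers was 16.26. On each TEC array all 6 macrophage markers were well above background too, against 2 in the cultured cells. In a sample of many cells, fewer cells of a type and less RNA per cell cannot be told apart. Signals below are quantile normalized log2 values, and with 1 array per condition a ratio between arrays has no replicate check.

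The share of P450s that carried the flag was above that of all genes in LSEC alone. Of the 82 members, 52 were well above background in LSEC, 26 in HAK-1B TEC, 61 in Hepa1-6 TEC, 29 in KYN-2 TEC and 23 in the cultured cells. These are 63.41%, 31.71%, 74.39%, 35.37% and 28.05% of the members. Over all genes the shares were 54.5%, 57.4%, 78.7%, 54.9% and 45.5%. The flag does not mean the same signal on each array: the lowest value that carried it was 2.85 in Hepa1-6 TEC and lay between 4.28 and 5.96 on the other arrays. At a fixed normalized signal of at least 6, 39 members passed in LSEC, 16 in HAK-1B TEC, 24 in Hepa1-6 TEC, 21 in KYN-2 TEC and 24 in the cultured cells. Of all genes, between 45.9% and 47.4% passed this level on each array. LSEC had the most members at this level, and Hepa1-6 TEC no longer led. The hepatocyte-type members made up most of this difference, with 21 of 45 at 6 or above in LSEC, 3 in HAK-1B TEC, 10 in Hepa1-6 TEC, 6 in KYN-2 TEC and 11 in the cultured cells. The 37 other members differed less between arrays, with 18, 13, 14, 15 and 13 in the same order.

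**Figure D1:**
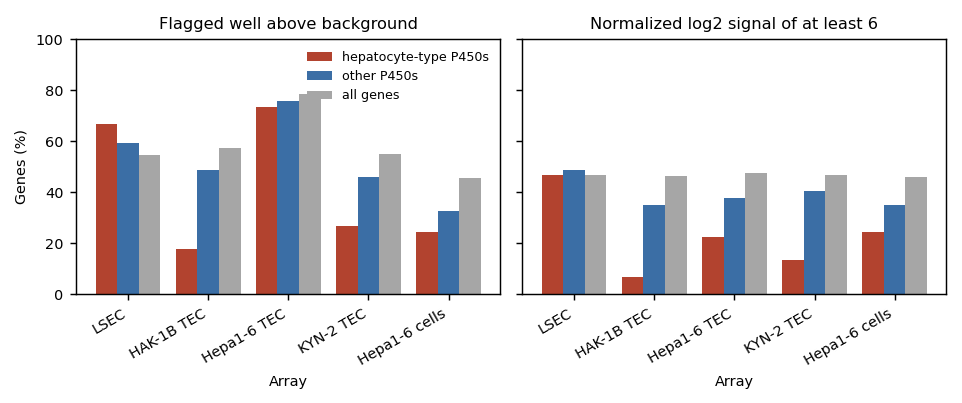
Share of genes (%, y axis) on each of the 5 arrays (x axis) that carried the flag for well above background (left) or had a normalized log2 signal of at least 6 (right). Bars stand for the 45 hepatocyte-type P450s, the 37 other P450s and all 37074 genes; at the fixed signal, hepatocyte-type P450s fall from 21 of 45 in LSEC to 3 in HAK-1B TEC, while all genes stay level.

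A total of 11 members were well above background on all 5 arrays: Cyp2c38, Cyp2d11, Cyp2r1, Cyp2s1, Cyp2u1, Cyp4b1, Cyp4f13, Cyp4f16, Cyp4f17, Cyp4f18 and Cyp4v3. Of these, 9 were outside the hepatocyte-type list. Cyp2u1 counts here through a probe that holds a GT repeat, and neither of its other 2 probes was above background on all 5 arrays. By the chosen probe, 15 members were above background on no array, although for Cyp2j5 (LSEC) and Cyp4x1 (Hepa1-6 TEC) another probe was above background on 1 array. Among them were Cyp4a14, a target of the peroxisome proliferator receptor, Cyp2b9, Cyp2b13 and Cyp3a44, which are female-typical in mouse liver, and Cyp2c44, an epoxygenase described in vessels. For Cyp2c44, which RefSeq now names Cyp2c23, both probes were dim (not well above background) on every array, with signals of the chosen probe between 2.60 and 4.76. A total of 4 members were above background in LSEC alone (Cyp2c50, Cyp2c54, Cyp2d34 and Cyp4a12b) and 9 in Hepa1-6 TEC alone. The shares of all genes flagged on all arrays, on none or on 1 alone were not counted. Of all genes, 78.7% carried the flag in Hepa1-6 TEC, where it began at the lowest signal (2.85). Cyp1a2 (3.46 against 3.90), Cyp4a10 (3.05 against 3.92) and Cyp4a12a (2.86 against 4.10), of the 9, had less signal there than in LSEC. The rest of the 9 had more. Cyp2c66 was the 1 member above background in the cultured cells alone, at 7.30 against 2.62 to 3.45 on the other arrays.

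Each array was then compared with LSEC by the rule of size of the study, which asks for a ratio of 1.5 or more with a Z-score of 2 or more (higher), or a ratio of 0.66 or less with a Z-score of -2 or less (lower), over probes that were present on at least 1 of the 2 arrays. All 4 comparisons use the same LSEC array. In HAK-1B TEC 53 members were kept, of which 26 were called lower and 1 higher, where the rule called 3.96% of all genes tested lower and 3.13% higher. In KYN-2 TEC 21 of 53 members were called lower and 0 higher, where 2.9% of all genes tested were lower and 3.68% higher. In Hepa1-6 TEC 9 of 65 members were called lower and 3 higher, beside 2.04% and 4.48% of all genes tested. In Hepa1-6 cells 4 of 57 members were called lower and 2 higher, beside 4.85% and 2.57% of all genes tested. The share of members called lower was thus above the share of all genes in the 3 TECs and near it in the cultured cells. The rule asks for more in some comparisons than in others: a gene had to be 6.91-fold lower in HAK-1B TEC, 9.84-fold in Hepa1-6 TEC, 6.77-fold in KYN-2 TEC and 51.2-fold in the cultured cells. When a probe had to be present on both arrays, the lower calls fell to 8 (HAK-1B TEC) and 6 (KYN-2 TEC), since most of the members called there were dim on the TEC array. With normexp background correction there were 10 in each.

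The hepatocyte-type members carried most of these lower calls, 20 of 26 in HAK-1B TEC, 6 of 9 in Hepa1-6 TEC and 16 of 21 in KYN-2 TEC. Their median log2 ratio to LSEC was -2.51 in HAK-1B TEC, -1.24 in Hepa1-6 TEC, -2.14 in KYN-2 TEC and -1.83 in the cultured cells. The median over all genes was -0.04, -0.09, -0.04 and 0.12, and that of the 37 other members -0.07, -0.53, -0.01 and 0.00. By sign alone 44 of the 45 hepatocyte-type members were lower than LSEC in HAK-1B TEC, 37 in Hepa1-6 TEC, 40 in KYN-2 TEC and 29 in the cultured cells. Of all 37074 genes, 20930, 20002, 20561 and 14633 were lower in the same order. Many of the hepatocyte-type values are dim, and their ratios depend on how dim values are treated. With every value raised to the lowest one well above background on its array, the medians were -1.22, -1.83, -0.81 and 0.56, where those of all genes were -0.40, -0.86, -0.03 and 1.28. The ratio of the cultured cells to LSEC thus changed sign under this floor, and the median of all genes also moved up.

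**Figure D2:**
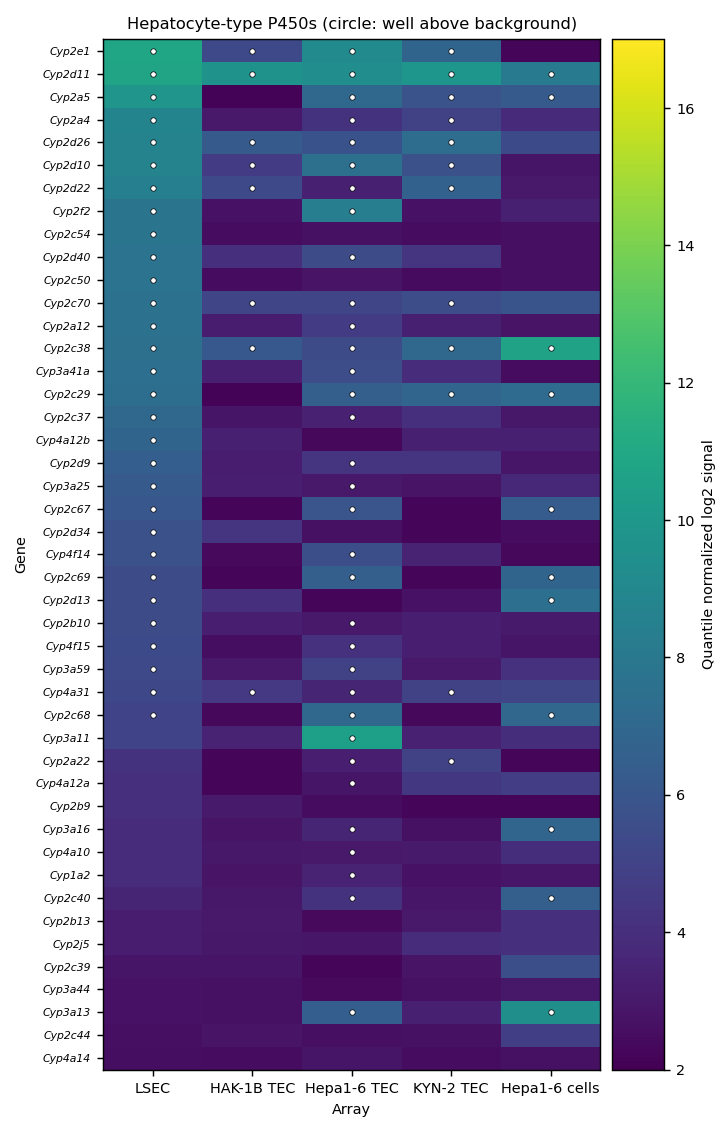
Normalized log2 signal (colour) of the 45 hepatocyte-type P450s (rows, in the order of their LSEC signal) on the 5 arrays (columns); a white circle marks a value well above background. The LSEC column is bright in its upper part, and the HAK-1B TEC and KYN-2 TEC columns hold 8 and 12 circles.

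The P450s of pericentral hepatocytes were among the members that differed most. This list holds Cyp1a2, Cyp2a5, Cyp2c29, Cyp2c37, Cyp2c50, Cyp2c54, Cyp2e1 and Cyp3a11, and its median log2 ratio to LSEC was -5.25 in HAK-1B TEC, -2.19 in Hepa1-6 TEC, -3.51 in KYN-2 TEC and -3.83 in the cultured cells. The Hepa1-6 TEC median of this list includes Cyp3a11, whose spot there was uneven (described below). Of the 8 members of the list, 6 were called lower in HAK-1B TEC, 3 in Hepa1-6 TEC, 5 in KYN-2 TEC and 1 in the cultured cells. Of all genes tested, 3.96%, 2.04%, 2.9% and 4.85% were called lower in the same order. Well above background were 6 of the 8 in LSEC and 1, 6, 3 and 2 on these arrays, so the medians rest largely on dim values except in Hepa1-6 TEC. Cyp2f2, which is not on the list, had log2 ratios of -5.06 in HAK-1B TEC and KYN-2 TEC and 0.60 in Hepa1-6 TEC. Cyp2e1, which oxidizes ethanol and acetaminophen, had a signal of 10.81 in LSEC, 5.34 in HAK-1B TEC, 9.16 in Hepa1-6 TEC, 6.81 in KYN-2 TEC and 2.29 in the cultured cells. It was 44.3-fold lower in HAK-1B TEC, 3.13-fold lower in Hepa1-6 TEC and 16-fold lower in KYN-2 TEC than in LSEC, and at least 28.7-fold lower in the cultured cells, where it was not well above background. Among the TECs the Hepa1-6 TEC value was thus the nearest to LSEC.

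The CYP2A enzymes lie with CYP2B and CYP2F on chromosome 7. Cyp2a5, which hydroxylates coumarin, had signals of 9.80 in LSEC, 2.17 in HAK-1B TEC, 7.06 in Hepa1-6 TEC, 5.86 in KYN-2 TEC and 6.26 in the cultured cells. It was above background everywhere except in HAK-1B TEC, where it was at least 46.1-fold below LSEC. Cyp2a4, a steroid hydroxylase close to Cyp2a5 in sequence, gave 8.77, 3.03, 4.21, 4.90 and 3.81 in the same order, and its probe also lists Cyp2a5 as a target. It was called lower in all 3 TECs. Cyp2f2, which activates naphthalene, gave 7.79 in LSEC, 2.73 in HAK-1B TEC, 8.39 in Hepa1-6 TEC, 2.73 in KYN-2 TEC and 3.29 in the cultured cells. Cyp2f2 was thus 1.52-fold higher in Hepa1-6 TEC than in LSEC, whereas in both other TECs it was dim, at least 11.4-fold and at least 8.85-fold lower than LSEC.

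The CYP2C cluster on chromosome 19 showed opposite patterns among close relatives. Cyp2c50 and Cyp2c54, which epoxidize arachidonic acid, were measured in LSEC alone. Cyp2c50 had a signal of 7.72 in LSEC and between 2.45 and 2.76 on the other 4 arrays. Cyp2c54 had 7.75 in LSEC and between 2.49 and 2.69 elsewhere. In the TECs Cyp2c50 was at least 10.9-fold, 29.4-fold and 8.43-fold lower than LSEC (HAK-1B, Hepa1-6 and KYN-2), and the second Cyp2c50 probe was dim on every array. Another epoxygenase, Cyp2c37, went from 7.09 in LSEC to 2.84, 3.40, 4.02 and 2.96, on a probe that also lists Cyp2c50, so that the values of these genes may not be separate. Cyp2c29, in contrast, was at 7.44 in LSEC, 2.17 in HAK-1B TEC, 6.52 in Hepa1-6 TEC, 6.89 in KYN-2 TEC and 7.22 in the cultured cells, so that it was dim in HAK-1B TEC alone. Cyp2c38 was above background on all 5 arrays, at 7.55, 6.16, 5.50, 7.06 and 10.63, and was 8.42-fold higher in the cultured cells than in LSEC, which is below the 39.8-fold that a higher call required there.

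A group of CYP2C genes was well above background in Hepa1-6 TEC and Hepa1-6 cells and dim in both TECs of human tumors. Of this group, Cyp2c67, Cyp2c68 and Cyp2c69 were well above background in LSEC too. Cyp2c67 had signals of 6.09 in LSEC, 2.20 in HAK-1B TEC, 5.93 in Hepa1-6 TEC, 2.19 in KYN-2 TEC and 6.37 in the cultured cells. Cyp2c68 had 5.02, 2.33, 7.07, 2.35 and 6.92, and Cyp2c69 had 5.49, 2.22, 6.53, 2.23 and 6.85 in the same order. Cyp2c40 was above background in Hepa1-6 TEC (4.18) and Hepa1-6 cells (6.56) but not in LSEC (3.58). These genes cannot be read as separate measurements: the probes of Cyp2c40, Cyp2c68 and Cyp2c69 each list other genes of the group, and the Cyp2c67 and Cyp2c68 probes share 53 of 56 aligned bases. The stretches below show 30 bases of both probes, at chr19:39683449-39683478 and chr19:39763441-39763470 of mm9 on the minus strand, with the bases that differ in capitals.
Cyp2c67 probe: cagAaattccatctatattccttcttatcC
Cyp2c68 probe: cagGaattccatctatattccttcttatcA

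The promoters of the same genes were then searched for motifs. Promoters of 300 bases (250 before and 50 after the start of the gene, RefSeq, GRCm38.p6) were matched by symbol for 63 of the 82 members, and 7 motifs were searched on both strands. CAAAGTCCA, an element bound by the hepatocyte factor HNF4A, was in 9 of the 70 member promoters (12.9%) and in 0.475% of all 32851 promoters. It was in the promoters of Cyp2c40, Cyp2c65, Cyp2c67, Cyp2c68, Cyp2c69, Cyp2c70, Cyp3a11, Cyp3a16 and Cyp3a41a, which are neighbours that share ancestry, so that these are not 9 separate cases. The windows below, on the minus strand, are chr19:39649139-39649188, chr19:39741150-39741199, chr19:39886816-39886865 and chr19:39812831-39812880 for the CYP2C genes and chr5:145879935-145879984 and chr5:145720203-145720252 for the CYP3A genes, with the motif in capitals. They are shown because the first 4 genes belong to the CYP2C group described above, whose probes cannot be read as separate measurements. Of these, Cyp2c40 was dim in LSEC, whereas the others were not. Whether the motif had a part in their values was not tested.
Cyp2c67 promoter: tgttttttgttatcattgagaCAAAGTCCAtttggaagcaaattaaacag
Cyp2c68 promoter: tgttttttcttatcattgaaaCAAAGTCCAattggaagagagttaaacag
Cyp2c69 promoter: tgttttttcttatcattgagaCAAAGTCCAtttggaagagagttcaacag
Cyp2c40 promoter: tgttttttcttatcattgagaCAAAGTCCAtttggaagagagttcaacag
Cyp3a11 promoter: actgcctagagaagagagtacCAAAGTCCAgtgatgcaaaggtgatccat
Cyp3a41a promoter: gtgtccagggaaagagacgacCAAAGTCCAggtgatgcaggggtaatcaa

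The Cyp2c69 and Cyp2c40 windows are identical over all 50 bases. The genes that hold the motif did not share 1 pattern, since Cyp3a41a had signals of 7.48 in LSEC, 3.29 in HAK-1B TEC, 5.54 in Hepa1-6 TEC, 3.91 in KYN-2 TEC and 2.49 in the cultured cells. Of the other motifs, TATAAA was in 38.6% of member promoters and 13.6% of all, GTTAAT (an HNF1 half-site) in 12.9% and 7.1%, TGACCTTTG (an HNF4A half-site) in 5.71% and 0.478%, and GCGTG (the core bound by the aryl hydrocarbon receptor) in 18.6% and 32.4%. TTGCGTGAG, which contains GCGTG, and a direct repeat of AGGTCA with 1 base between were in none of the member promoters. A match describes these letters and does not show that a factor was bound. Hnf4a itself had signals of 8.46 in LSEC, 3.94 in HAK-1B TEC, 10.13 in Hepa1-6 TEC, 5.45 in KYN-2 TEC and 13.52 in the cultured cells, and its part in the P450 values was not tested.

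In the CYP2D cluster on chromosome 15, which holds drug-oxidizing enzymes, all 10 members were well above background in LSEC. Their median log2 ratio to LSEC was -3.02 in HAK-1B TEC, -2.22 in Hepa1-6 TEC, -2.50 in KYN-2 TEC and -3.51 in the cultured cells. Cyp2d10 had signals of 8.70 in LSEC, 4.66 in HAK-1B TEC, 7.51 in Hepa1-6 TEC, 5.71 in KYN-2 TEC and 2.84 in the cultured cells, and was 16.4-fold, 2.28-fold and 7.94-fold lower than LSEC in the TECs. Cyp2d22 had 8.45, 5.34, 3.34, 6.64 and 3.05, so that here Hepa1-6 TEC was the lowest of the TECs, 34.4-fold below LSEC. Cyp2d26 gave 8.73 in LSEC, 6.22 in HAK-1B TEC, 5.80 in Hepa1-6 TEC, 7.35 in KYN-2 TEC and 5.37 in the cultured cells. Its second probe was above background on the same arrays but placed Hepa1-6 TEC (7.41) above KYN-2 TEC (6.19), so the order of these TECs was not settled. Cyp2d11 was the 1 gene of the cluster above background on all 5 arrays, at 10.78, 9.64, 9.34, 9.89 and 8.24, and stayed within 2.73-fold of LSEC in the TECs.

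The CYP3A enzymes, which oxidize a wide range of drugs and steroids, were dim in both TECs of human tumors. On chromosome 5, 4 of the 7 genes of the cluster were above background in LSEC, 0 in HAK-1B TEC, 6 in Hepa1-6 TEC, 0 in KYN-2 TEC and 1 in the cultured cells. The larger count in Hepa1-6 TEC did not mean more signal, as the median log2 ratio of the cluster to LSEC was -0.37 there. Of all genes, 78.7% carried the flag in Hepa1-6 TEC and 54.5% in LSEC. Cyp3a16 carried it at 3.56 in Hepa1-6 TEC but not at 3.93 in LSEC. The count also includes an uneven Cyp3a11 spot, described below. Cyp3a13, which lies apart from the cluster and is best known from the intestine, had signals of 2.72 in LSEC, 2.65 in HAK-1B TEC, 6.51 in Hepa1-6 TEC, 3.34 in KYN-2 TEC and 9.46 in the cultured cells. It was called higher in Hepa1-6 TEC (at least 3.55-fold over LSEC) and in the cultured cells (at least 27.6-fold). With normexp background correction both calls were lost.

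Cyp3a11, the main drug-inducible CYP3A of mouse liver, had a signal of 5.0 in LSEC, 3.48 in HAK-1B TEC, 10.48 in Hepa1-6 TEC, 3.40 in KYN-2 TEC and 3.95 in the cultured cells, and was well above background in Hepa1-6 TEC alone. That single value rests on an uneven spot. On the Hepa1-6 TEC array its pixels had a mean of 1521 and a median of 256, the SD over pixels was 4501, and the scanner software marked it as a non-uniformity outlier. The ratio of median to mean was 0.168, whereas on the other 4 arrays it lay between 0.962 and 1.04. No other member had an outlier mark on its chosen probe on any array. The mark kept the Hepa1-6 TEC value from counting as present, so that no call was made, and no fold change of Cyp3a11 is given here. The value was not removed elsewhere. It counts in the Hepa1-6 TEC medians and counts of the hepatocyte-type, pericentral and CAR and PXR lists, and in the figures of the hepatocyte-type members. The probe also lists Cyp3a41a, Cyp3a41b and Cyp3a44, and spans an intron at chr5:146672058-146673925 of mm9, minus strand. It is shown whole because 1 spot of it sets the highest hepatocyte-type value on that array.
Cyp3a11 probe: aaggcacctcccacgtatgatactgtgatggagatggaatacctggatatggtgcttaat

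The CYP4A enzymes hydroxylate fatty acids and follow Ppara in the liver. Of the PPAR alpha targets on the array (Cyp4a10, Cyp4a14 and Cyp4a31), 1 was above background in LSEC, 1 in HAK-1B TEC, 2 in Hepa1-6 TEC, 1 in KYN-2 TEC and 0 in the cultured cells, and none reached a signal of 6 on any array. Ppara had signals of 6.69 in LSEC and 8.03 in Hepa1-6 TEC and was not well above background on the other 3 arrays. Cyp4a12b, a male-typical gene in mouse liver, was at 6.86 in LSEC and between 2.32 and 3.33 elsewhere. The methods describe female mice. The male-typical and female-typical lists (3 and 8 genes on the array) had 2 and 3 members above background in LSEC.

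**Figure D3:**
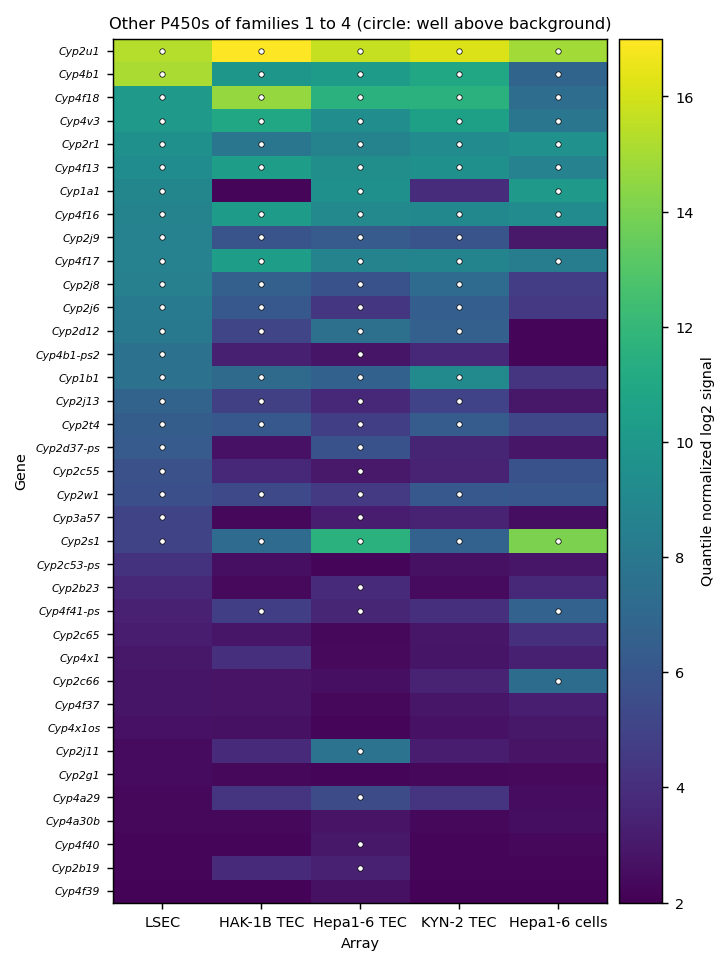
Normalized log2 signal (colour) of the 37 P450s outside the hepatocyte-type list (rows, in the order of their LSEC signal) on the 5 arrays (columns); a white circle marks a value well above background. Cyp4f13, Cyp4f16, Cyp4f17, Cyp4f18, Cyp4v3, Cyp2r1, Cyp2s1, Cyp2u1 (by its GT-repeat probe) and Cyp4b1 carry 5 circles each.

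Among the members outside the hepatocyte-type list, Cyp4b1 was called lower in every comparison with LSEC. Cyp4b1, a P450 best known from the lung, had signals of 15.08 in LSEC, 9.92 in HAK-1B TEC, 10.30 in Hepa1-6 TEC, 10.97 in KYN-2 TEC and 6.83 in the cultured cells. It was above background on all 5 arrays and was 35.7-fold, 27.4-fold and 17.3-fold lower in the TECs and 303-fold lower in the cultured cells than in LSEC. It was the 1 member called lower in all 3 TECs when probes had to be present on both arrays. The LSEC and pan-endothelial markers (8 genes each) also had medians below LSEC. Their median log2 ratios were -3.41 and -2.49 in HAK-1B TEC and -2.99 and -2.52 in Hepa1-6 TEC. They were -2.66 and -1.34 in KYN-2 TEC and -13.21 and -9.20 in the cultured cells. The part of endothelial RNA in the Cyp4b1 values was not tested. The neighbouring pseudogene Cyp4b1-ps2 was also called lower in all 3 TECs, with 7.63 in LSEC and 3.34, 2.86 and 3.68 in the TECs. Its probe shares 21 of 23 aligned bases with that of Cyp4b1, shown here with the differing bases in capitals (chr4:115297443-115297465 and chr4:115254696-115254718 of mm9, minus strand), and whether its signal came from Cyp4b1 RNA was not tested.
Cyp4b1 probe: ctgTcttgagaaacttCatttat
Cyp4b1-ps2 probe: ctgCcttgagaaacttAatttat

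With these, 7 members were called lower in all 3 TECs: Cyp2a4, Cyp2c37, Cyp2c50, Cyp2c54, Cyp4a12b, Cyp4b1 and Cyp4b1-ps2. No member was called higher in all 3. The share of all genes called lower in all 3 was not counted. In single TECs it was between 2.04% and 3.96% of the genes tested, and the 3 comparisons use the same LSEC array. The 7 were found again with pairwise quantile normalization and with the deposited table of values. With normexp correction 5 of them were found, and 6 when arrays were scaled to the 75th percentile. When probes had to be present on both arrays, 1 remained, Cyp4b1. Cyp2c50, Cyp2c54 and Cyp4a12b were dim in all 3 TECs. Cyp2c37 and Cyp4b1-ps2 were dim in HAK-1B TEC and KYN-2 TEC, and Cyp2a4 in HAK-1B TEC.

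**Figure D4:**
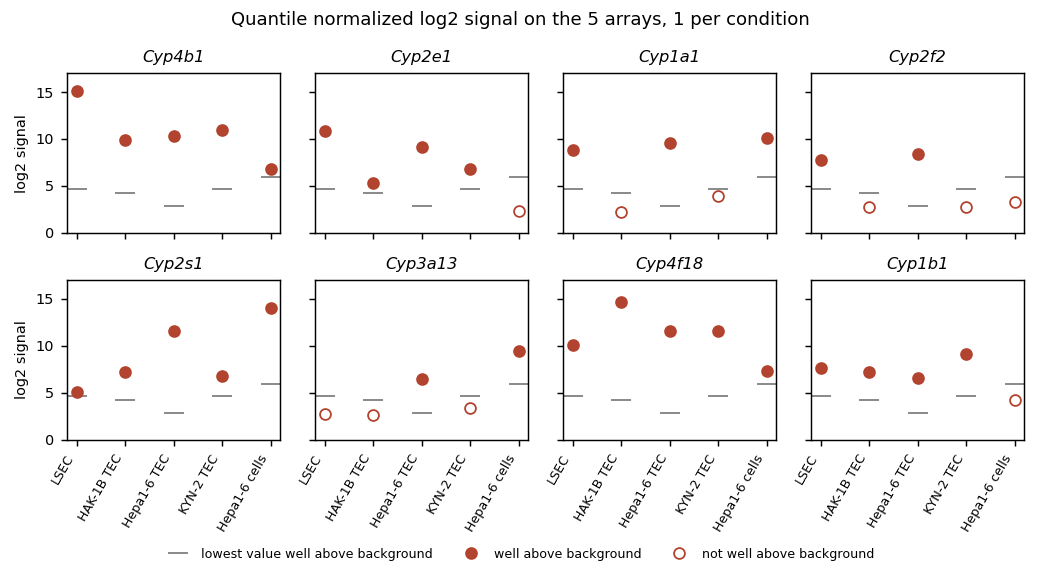
Normalized log2 signal (y axis) of 8 P450s on the 5 arrays (x axis), 1 array per condition. Filled circles are well above background, open circles are not, and grey bars mark the lowest value well above background on each array; Cyp4b1 is highest in LSEC, Cyp2s1 and Cyp3a13 in the cultured cells, Cyp4f18 in HAK-1B TEC and Cyp1b1 in KYN-2 TEC.

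The aryl hydrocarbon receptor targets did not move together. Cyp1a1, which oxidizes polycyclic hydrocarbons, had signals of 8.87 in LSEC, 2.22 in HAK-1B TEC, 9.52 in Hepa1-6 TEC, 3.92 in KYN-2 TEC and 10.08 in the cultured cells. It was dim in both TECs of human tumors, at least 24.2-fold and at least 18.7-fold below LSEC, and called lower there, whereas it was 1.57-fold higher in Hepa1-6 TEC and 2.31-fold higher in the cultured cells. Cyp1b1, which is known from vessel and stromal cells, went another way, with 7.63 in LSEC, 7.19 in HAK-1B TEC, 6.63 in Hepa1-6 TEC, 9.12 in KYN-2 TEC and 4.29 (dim) in the cultured cells. Stellate cell and fibroblast markers (6 genes) had a median log2 ratio of 0.85 (HAK-1B TEC), 2.88 (Hepa1-6 TEC) and 2.02 (KYN-2 TEC) against LSEC, and their part in the Cyp1b1 values was not tested. Cyp1a2, the hepatocyte form, was above background in Hepa1-6 TEC alone and at 3.46 there. Ahr was above background on all 5 arrays, at 13.26 in LSEC and between 11.03 and 11.76 on the others. The Cyp1a1 promoter held the motif GCGTG at the capitals of the window chr9:57697538-57697587 (GRCm38.p6, plus strand), and that of Cyp1b1 held it too.
Cyp1a1 promoter: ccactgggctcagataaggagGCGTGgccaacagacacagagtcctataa

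Cyp2s1, a P450 known from epithelia outside the liver, was highest in the cultured cells. Its signals were 5.09 in LSEC, 7.26 in HAK-1B TEC, 11.58 in Hepa1-6 TEC, 6.74 in KYN-2 TEC and 14.04 in the cultured cells. It was 90.2-fold higher in Hepa1-6 TEC and 496-fold higher in the cultured cells than in LSEC, both called, and 4.51-fold and 3.15-fold higher in HAK-1B TEC and KYN-2 TEC, not called. The second probe of Cyp2s1 was dim on all 5 arrays, so these values rest on 1 probe. Cyp2j11 was called higher in Hepa1-6 TEC, at 7.70 there (at least 8.15-fold over LSEC) and between 2.44 and 3.84 elsewhere, but not with normexp correction. Unlike Cyp2s1 and Cyp3a13, it was not above background in the cultured cells. Hepatoma markers (5 genes) also differed between these arrays. Their median log2 ratio to LSEC was 1.01 in HAK-1B TEC, 4.53 in Hepa1-6 TEC, 0.49 in KYN-2 TEC and 3.92 in the cultured cells, and the log2 of their summed signal was 8.47, 9.35, 15.48, 10.37 and 16.04 from LSEC to the cultured cells. Of these genes Afp, Gpc3 and Igf2bp3 were higher in Hepa1-6 TEC and the cultured cells than on the other arrays, whereas H19 was called higher in HAK-1B TEC and KYN-2 TEC and was dim in the cultured cells, and Dlk1 was dim on all 5 arrays. The defining marker Afp was at 7.80 in LSEC, 15.38 in Hepa1-6 TEC and 15.92 in the cultured cells. Cholangiocyte markers, which are epithelial, had a median log2 ratio to LSEC of -0.07 in HAK-1B TEC, 4.36 in Hepa1-6 TEC, 1.07 in KYN-2 TEC and 1.86 in the cultured cells, and 2 of 5 were well above background in LSEC, 2 in HAK-1B TEC, 5 in Hepa1-6 TEC, 4 in KYN-2 TEC and 3 in the cultured cells. Krt7 was higher in the cultured cells (10.97) than in Hepa1-6 TEC (9.81), and Cldn7 was lower in Hepa1-6 TEC (4.81) than in LSEC (6.64). The part of RNA from other cell types in the Hepa1-6 TEC values was not tested. Probes on the array are for mouse genes, and how RNA of the human tumor lines would bind to them was not measured here.

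Cyp4f18, which inactivates leukotriene B4 in neutrophils, was highest in HAK-1B TEC. Its signals were 10.13 in LSEC, 14.64 in HAK-1B TEC, 11.59 in Hepa1-6 TEC, 11.58 in KYN-2 TEC and 7.36 in the cultured cells, and it was 22.6-fold higher in HAK-1B TEC than in LSEC and 2.74-fold and 2.73-fold higher in Hepa1-6 TEC and KYN-2 TEC. It was the 1 member called higher in HAK-1B TEC. All 3 of its probes gave the same order of HAK-1B TEC above both other TECs, above LSEC, above the cultured cells. Neutrophil markers also differed between these arrays. Their median log2 ratio to LSEC was 4.43 in HAK-1B TEC, 4.35 in Hepa1-6 TEC, 0.55 in KYN-2 TEC and -3.19 in the cultured cells. The log2 of their summed signal was 16.48 in LSEC, 17.57 in HAK-1B TEC, 15.94 in Hepa1-6 TEC, 16.22 in KYN-2 TEC and 15.25 in the cultured cells, where Csf3r made up most of it on every array except HAK-1B TEC. S100a9 had signals of 9.46 in LSEC, 16.46 in HAK-1B TEC, 14.05 in Hepa1-6 TEC, 10.61 in KYN-2 TEC and 5.47 in the cultured cells. Cyp4f18 and S100a9 were thus highest in HAK-1B TEC, as were S100a8 and Retnlg. In all, 5 of 6 neutrophil markers were called higher there. The other markers did not have the order of Cyp4f18. Csf3r was highest in LSEC (16.45 against 15.80 in HAK-1B TEC) but was also at 15.22 in the cultured cells, so it set them little apart. Mmp8 was level over the TECs (9.83 to 9.87). Ly6g was highest in the cultured cells (9.74) and higher in Hepa1-6 TEC (7.10) than in HAK-1B TEC (6.12). The part of the neutrophil markers in the Cyp4f18 value was not tested.

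The other CYP4F genes went both ways. The hepatocyte-type Cyp4f14 had signals of 5.74 in LSEC, 2.38 in HAK-1B TEC, 5.59 in Hepa1-6 TEC, 3.50 in KYN-2 TEC and 2.31 in the cultured cells, and Cyp4f15 had 5.35, 2.54, 4.16, 3.25 and 2.83 in the same order. Both were above background in LSEC and Hepa1-6 TEC alone and were called lower in HAK-1B TEC, where they were dim and at least 2.76-fold and at least 2.11-fold below LSEC. Cyp4f37 and Cyp4f39 were dim on all 5 arrays, and Cyp4f40 was above background in Hepa1-6 TEC alone, at 2.99. Cyp4f13 had signals of 9.32, 10.33, 9.42, 9.54 and 8.67 in LSEC, HAK-1B TEC, Hepa1-6 TEC, KYN-2 TEC and Hepa1-6 cells. Cyp4f16 had 8.70, 10.32, 9.06, 9.02 and 9.24, and Cyp4f17 had 8.63, 10.35, 8.70, 8.79 and 8.29. These 3 were highest in HAK-1B TEC, by 2.02-fold, 3.07-fold and 3.30-fold over LSEC, and none was called. The second probe of Cyp4f13 was slightly below LSEC in HAK-1B TEC (5.95 against 6.03), and the second of Cyp4f16, which also lists Cyp4f37, was below LSEC in Hepa1-6 TEC (4.95 against 6.40). Cyp4v3, a fatty acid hydroxylase, had 10.11 in LSEC, 10.94 in HAK-1B TEC, 9.37 in Hepa1-6 TEC, 10.53 in KYN-2 TEC and 7.88 in the cultured cells. Cyp2r1, a vitamin D 25-hydroxylase, was between 7.90 (HAK-1B TEC) and 9.56 (Hepa1-6 cells), with 9.54 in LSEC.

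The CYP2J epoxygenases were lower than LSEC on every array apart from genes that were dim in LSEC. Cyp2j6 had signals of 8.12 in LSEC, 6.14 in HAK-1B TEC, 4.35 in Hepa1-6 TEC, 6.50 in KYN-2 TEC and 4.48 in the cultured cells. Cyp2j9 had 8.67, 5.90, 6.29, 5.90 and 3.05, and Cyp2j8 had 8.55, 6.58, 5.76, 7.22 and 4.73. All 3 were dim in the cultured cells. Cyp2j6 was called lower in Hepa1-6 TEC and Cyp2j9 in KYN-2 TEC, while Cyp2j8 was not called. Over the 10 arachidonic acid epoxygenases of both subfamilies, 7 were above background in LSEC, 3 in HAK-1B TEC, 5 in Hepa1-6 TEC, 4 in KYN-2 TEC and 2 in the cultured cells. Of all genes, 54.5%, 57.4%, 78.7%, 54.9% and 45.5% carried the flag in the same order. In each TEC 7 epoxygenases were kept and 4 were called lower. Of all genes tested, 3.96% (HAK-1B TEC), 2.04% (Hepa1-6 TEC) and 2.9% (KYN-2 TEC) were called lower. Cyp2c50 and Cyp2c54 were dim in every TEC, and the Cyp2c37 probe also lists Cyp2c50, so these calls are not all separate.

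The probe chosen for Cyp2u1, a fatty acid hydroxylase, gave signals of 15.32 in LSEC, 17.03 in HAK-1B TEC, 15.65 in Hepa1-6 TEC, 16.22 in KYN-2 TEC and 14.89 in the cultured cells. Its other 2 probes had between 2.74 and 5.41 on the same arrays. The bright probe holds 16 GT units in a row, of which a stretch at chr3:130996364-130996393 (mm9, minus strand) is shown with the repeat in capitals. Across the array 68 probes held at least 8 GT units in a row, and 57 of them (83.8%) had a signal of at least 12 on all 5 arrays, against 4.68% of all probes. The Cyp2u1 level is therefore not given as that of the gene.
Cyp2u1 probe: ttgGTGTGTGTGTGTGTGTGTGTGTGTGTG

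The hepatocyte-type P450s were set beside the 20 hepatocyte markers. The median log2 ratio of the markers to LSEC was -3.88 in HAK-1B TEC, 0.55 in Hepa1-6 TEC, -1.94 in KYN-2 TEC and -2.38 in the cultured cells, where that of the P450s was -2.51, -1.24, -2.14 and -1.83. Of the 20 markers, 20 were well above background in LSEC, 13 in HAK-1B TEC, 19 in Hepa1-6 TEC, 19 in KYN-2 TEC and 9 in the cultured cells. In HAK-1B TEC 12 of 20 markers were called lower, in Hepa1-6 TEC 0, in KYN-2 TEC 8 and in the cultured cells 5. Both lists were thus below LSEC in the TECs of human tumors, and in Hepa1-6 TEC the markers were slightly above LSEC while the P450s were below it. The log2 of the markers' summed signal, 16.96 in LSEC, 17.08 in HAK-1B TEC, 17.92 in Hepa1-6 TEC, 16.44 in KYN-2 TEC and 16.02 in the cultured cells, did not follow their median. Transferrin (Trf), which was at 16.22 in LSEC and between 15.03 and 17.22 elsewhere, made up most of it. Haptoglobin (Hp) was the 1 marker called higher, at 14.64 in HAK-1B TEC against 11.46 in LSEC. Albumin (Alb) had signals of 12.97 in LSEC, 6.51 in HAK-1B TEC, 15.54 in Hepa1-6 TEC, 8.85 in KYN-2 TEC and 13.94 in the cultured cells. In Hepa1-6 cells the markers fell into bright and dim ones, with Alb and Fgb well above background and Apoa1, Ttr and Fabp1 not. The part of hepatocyte RNA in the P450 values of LSEC and the TECs was not tested.

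**Figure D5:**
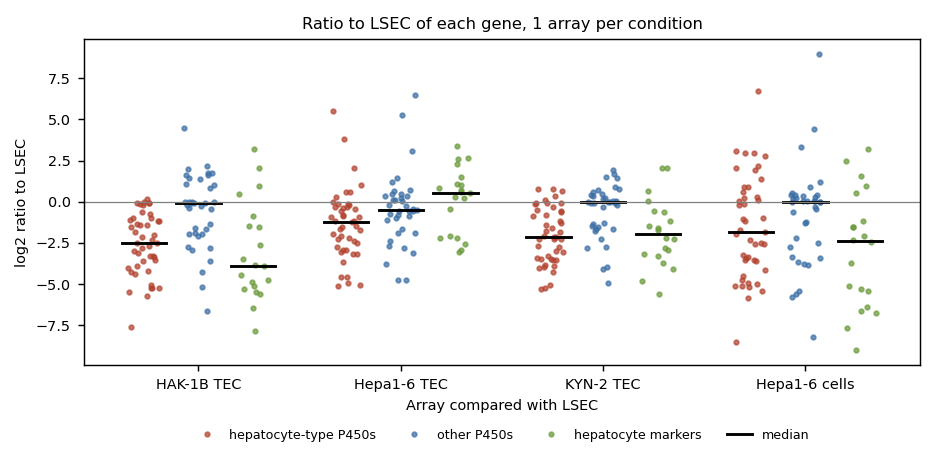
log2 ratio to LSEC (y axis) of each hepatocyte-type P450, other P450 and hepatocyte marker (points) in the 4 comparisons (x axis), with black bars at the medians. The hepatocyte-type medians lie between -2.51 and -1.24, and the marker median is above 0 in Hepa1-6 TEC alone.

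Of the 20 partners and regulators of P450s, 17 had a lower signal than LSEC in HAK-1B TEC, 12 in Hepa1-6 TEC, 15 in KYN-2 TEC and 12 in the cultured cells, with median log2 ratios of -1.46, -0.52, -0.80 and -1.17. Of all 37074 genes, 20930, 20002, 20561 and 14633 were lower in the same order. Por had signals of 12.50 in LSEC, 13.34 in HAK-1B TEC, 13.84 in Hepa1-6 TEC, 13.92 in KYN-2 TEC and 12.65 in the cultured cells. Cytochrome b5 (Cyb5a), which also passes electrons to P450s, was below LSEC on every other array, at 15.38 in LSEC and between 12.92 and 14.21 elsewhere. Of the list, 2 genes (HAK-1B TEC) and 4 (KYN-2 TEC) were called lower and 0 on the other arrays, and 1 was called higher in each of Hepa1-6 TEC, KYN-2 TEC and the cultured cells. Of all genes tested, 3.96% (HAK-1B TEC) and 2.9% (KYN-2 TEC) were called lower. The shares called higher were 4.48% in Hepa1-6 TEC, 3.68% in KYN-2 TEC and 2.57% in the cultured cells. Nr1i3 had 9.54 in LSEC, 6.43 in HAK-1B TEC, 7.25 in Hepa1-6 TEC, 6.35 in KYN-2 TEC and 6.05 (dim) in the cultured cells, and was called lower in HAK-1B TEC and KYN-2 TEC. Nr1i2 was well above background in Hepa1-6 TEC alone, at 4.07 against 4.26 in LSEC, so that the flag and the signal gave different orders. Of the 7 CAR and PXR targets, 4 were above background in LSEC, 0 in HAK-1B TEC, 6 in Hepa1-6 TEC, 1 in KYN-2 TEC and 2 in the cultured cells. Their median log2 ratio to LSEC was -2.07, -1.52, -1.83 and -1.05 from HAK-1B TEC to the cultured cells. The Hepa1-6 TEC values include the uneven Cyp3a11 spot.

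As the 1 comparison with a test, the 3 TECs were fitted as 1 group against the single LSEC array with limma, which assumes that LSEC varies like the TECs and leaves 2 residual degrees of freedom. After Benjamini-Hochberg adjustment over 42106 probes, 0 of 65 members and 0 probes in all passed an adjusted p of 0.05 in limma, and the smallest adjusted p was 0.444. At an unadjusted p under 0.05 there were 23 members of 65 and 3580 of the 42106 probes. Cyp2c54 and Cyp2c50 had the smallest unadjusted limma p among members, 0.000271 and 0.000305, with mean log2 ratios of -5.19 and -5.16 and lower values in 3 of 3 TECs. As no probe of any gene passed in this design, the adjusted p gives no information on P450s in particular.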

How the data were processed

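The authors labelled RNA with Cy3, hybridized it to 60-base mouse arrays and quantified the scans in Agilent Feature Extraction, version 9.5.1.1 per the labels and 10.7.1.1 per the file headers. They deposited the intensity of each spot (background-subtracted signal, raw mean and local background), flags of 0 or 1, and a table of quantile normalized intensity values. Control spots were left out, spots of a probe were averaged, and quantile normalization of the log2 values over the 5 arrays used numpy 2.4.6 and pandas 2.3.3 in Python 3.11.15. Each gene was read from its probe of highest mean log2 signal. The study's rule of size gave calls, without a test. limma 3.58.1 in R 4.3.3 compared the 3 TECs with LSEC, with Benjamini-Hochberg adjustment. Both were run on simulated data with less spread than these arrays, which checks the code and not how either performs here.

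Members and lists were chosen with earlier results of these data known. Genes named were, by rule, the hepatocyte-type members with the highest LSEC signal, the other members with the highest mean signal, members above background on all arrays, the 3 highest and 3 lowest ratios of each comparison, and a few set genes; the rest were chosen after their values were seen. "At least" folds set the brighter array against the higher of the dim signal and the lowest signal well above background on that array. Positions of probes are those of the array design (mm9). Of the 82 members, 14 had a probe that also lists another P450. The fixed alternatives were other flags, normalizations, background correction (normexp, offset 50), the deposited table, filters and probes, and each TEC left out. A fixed signal of 6 and probes that list their own gene alone were chosen after seeing the data. The number of arrays limits precision.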

Additional observations from a re-analysis of the deposited data

Results flagged for a closer look

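In 3 members the TECs differed in direction from LSEC, so that a call in TECs of human tumors stood against a value at least 1.5-fold the other way in Hepa1-6 TEC. All 3 were dim in HAK-1B TEC and KYN-2 TEC, so that the negative values depend on signals not well above background, and the bounds are what was measured. With 1 array for each tumor, the difference between the TECs was not tested. Cyp1a1 had a log2 ratio to LSEC of -6.65 (HAK-1B TEC), 0.65 (Hepa1-6 TEC) and -4.95 (KYN-2 TEC). The bounds for Cyp1a1 were at least 24.2-fold and at least 18.7-fold lower than LSEC in HAK-1B TEC and KYN-2 TEC. Cyp2f2 had -5.06, 0.60 and -5.06 in the same order, with bounds of at least 11.4-fold and at least 8.85-fold lower. Cyp2c69 had -3.28, 1.03 and -3.27, with bounds of at least 2.33-fold and at least 1.80-fold lower, on a probe that also lists Cyp2c67, Cyp2c68 and Cyp2c40.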

How the results depend on the processing

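No paired analysis was possible because there was a single array for each condition. Of the alternatives to the counts, medians and the limma result, 89 stayed within the limit set for no change (1.5 times for a count, and for a median the SD of its 3 TEC values), and 36 moved. Members above background by the flag for positive and significant signal were 47 (HAK-1B TEC), 52 (KYN-2 TEC) and 37 (Hepa1-6 cells), and at a signal of 6 they were 16 in HAK-1B TEC and 24 in Hepa1-6 TEC. Without the Z-score 8, 12, 5 and 11 members were called higher and 42, 40, 38 and 37 lower in HAK-1B TEC, Hepa1-6 TEC, KYN-2 TEC and Hepa1-6 cells. With normexp correction 10, 10 and 2 were lower in HAK-1B TEC, KYN-2 TEC and Hepa1-6 cells, and 1 was higher in Hepa1-6 TEC and 1 in Hepa1-6 cells. With probes present on both arrays 8, 6 and 2 were lower in the same order, and 1 was higher in Hepa1-6 TEC and 1 in Hepa1-6 cells. With scaling to the 75th percentile 2 were lower in Hepa1-6 cells. The hepatocyte-type medians with normexp were -0.82, -0.46, -0.75 and -0.47 in the order above, and with the floor -1.22 (HAK-1B TEC), -0.81 (KYN-2 TEC) and 0.56 (Hepa1-6 cells). The other members had -0.62 in HAK-1B TEC with the 75th percentile, -0.15 in Hepa1-6 TEC with normexp, and -0.40, -1.64 and 0.54 in HAK-1B TEC, Hepa1-6 TEC and Hepa1-6 cells with the floor. The floor differs between arrays by construction, and otherwise the cause was not tested. Scaling to the 75th percentile moved the median of all genes to -0.40, 0.30, -0.14 and 0.84. Of the ratios of named members that were called, 125 alternatives kept the call and 7 lost it, 6 of these with normexp, and none changed sign. limma called 0 members under every alternative and with any TEC left out, with between 17 and 34 members at an unadjusted p under 0.05 and the smallest adjusted limma p between 0.157 and 0.982 over those settings.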
